A study of Canis lupus familiaris with 77 samples.

Results

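Kidney was compared with every other tissue of a miRNA atlas of the beagle dog, over all miRNAs and in both directions. The 5 samples whose tissue label is kidney were set against the 71 samples of the other 15 tissues, which makes 76 samples with values in 16 tissues. The dogs were untreated males. By the study's methods they were Marshall Beagles 10 months old whose vessels were flushed with buffered saline before the organs were taken, and kidney RNA came from sections of whole tissue, so that cortex and medulla were not kept apart. The other groups were liver, heart, testis, lung, skeletal muscle, thymus, brain, duodenum, jejunum, ileum, pancreas, plasma and bone marrow with 5 samples each, colon with 4 and sciatic nerve with 2. RNA of plasma and of bone marrow was extracted by other procedures than that of the solid tissues.

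The measurement was miR-seq, the sequencing of RNA of miRNA length, given as the number of reads on each miRNA and as RPM, those reads scaled to the sample's total of reads on miRNAs. The kidney samples, numbered 1 to 5 in the order of their records, had between 1090108 and 6684616 reads on miRNAs with a median of 5184749, against a range of 157871 to 7896424 in the other samples. Of 650 miRNAs with a read in any sample, 509 had a read in kidney and 318 had one in all 5 kidney samples. The reads per kidney sample put 3 reads, the upper limit that a count of 0 allows, at 0.449 to 2.75 RPM, and such limits cover counting error only. No pair of kidney samples agreed within sampling noise. The lowest chi-square, which grows with depth, was 113 for each degree of freedom between samples 1 and 2. By the study's methods all tissues came from the same 5 dogs, so samples of different tissues share animals. The labels do not say which, and every test treats the samples as independent. In the main fit described below, p-values are set against the spread between samples of the same tissue. The spread between the other tissues does not enter them.

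A miRNA is a short RNA cut from a hairpin precursor, which guides a silencing complex to messenger RNAs that pair with its 5′ end and lowers their output. Either arm of the hairpin can become the mature form, written 5p and 3p. The kidney is built of tubules lined by epithelium, of filtering capillary tufts, of vessels and of interstitial cells. The miR-192 and miR-194 family, miR-204, the miR-200 family and the miR-30 family are known from renal epithelium, and the miRNAs of the HOX clusters, miR-10 and miR-196, follow position along the body axis as the HOX genes do. In whole tissue, fewer cells of a type and less miRNA per cell cannot be told apart. Names that begin with cfa are annotated in dog, and names that begin with hsa or rno are loci found in the dog genome from the human or rat sequence. Names without an arm are the arm that miRBase lists for dog, such as the 5p arm of miR-10b and of miR-30a.

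A few miRNAs made up most of the kidney reads. The 10 miRNAs with the highest kidney median, in falling order, were miR-10b, miR-10a, miR-30a, miR-192, miR-22, miR-181a, miR-26a, miR-143, miR-191 and miR-378. Together they took between 75.9% and 86.7% of the reads of a kidney sample, and the first 20 took between 87.8% and 93.2%. miR-10a and miR-10b alone took 54.0% at the median, between 38.1% and 63.2%. The same pair took a median of 44.1% in skeletal muscle, 40.3% in testis and 38.9% in bone marrow, 3.36% in liver and 0.237% in brain. Since RPM is a share, an miRNA in a sample with so much miR-10 has a lower RPM than its reads outside miR-10 would give. In kidney, 103 miRNAs had a median above 100 RPM.

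The fit across all tissues used edgeR's quasi-likelihood test with TMM scaling, and contrasted kidney with the mean of the 15 other tissue coefficients on the log2 scale. A call needed a Benjamini-Hochberg adjusted p below 0.05 and a log2 difference beyond 1 in either direction. Of 480 miRNAs tested, 96 were called higher in kidney (20%) and 38 lower (7.92%), and 165 had an adjusted p below 0.05 whatever the size. The scaling moved this split. With library size alone 52 were called higher and 77 lower and the median log2 difference of all tested miRNAs fell from -0.00 to -0.60, and with DESeq2 69 were higher and 93 lower with a median of -0.42. Directions below are therefore relative to the median miRNA, and 50 of the 96 higher calls and all 38 lower calls held under TMM, DESeq2 and library size. DESeq2 and library size lower the median difference and so favour lower calls, which makes them no strict check of the 38.

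The tissues without a read also shaped the count. Of the 480 miRNAs, 297 had a read in every tissue, and among these 71 were called higher (23.9%) and 38 lower (12.8%). The other 183 had no read in at least 1 tissue, most often bone marrow with 142 of them, and among these 25 were called higher and 0 lower. At a tissue without a read, the fitted mean of the others depends on the prior count of the fit, and edgeR gave no lower call there while limma on log2(RPM + 1) called 12 of the 183 higher and 26 lower. For such miRNAs named below the ratio of mean RPM is given beside any fitted size. When the 71 other samples were taken as 1 group, so that the spread between tissues counted as error, 16 miRNAs were called higher and 0 lower, with 168 at an unadjusted p under 0.05.

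miR-204, which is encoded in an intron of the channel gene TRPM3, was the miRNA with the largest ratio of means in kidney among those highly expressed. Its 5 kidney values were 6267, 7284, 7234, 9751 and 6563 RPM, a mean of 7420 ± 1374 (SD, n = 5), against a mean of 923 over the other 71 samples. The next tissue medians were 5411 RPM in brain, 2794 in testis and 715 in bone marrow, and plasma was lowest at 1.92. Of the other samples, 2 lay above the lowest kidney value, and the highest of them, a brain sample, reached 18388 RPM, so the groups overlapped through brain. The ratio of means was 8.04 with an adjusted p of 0.00139 by the two-sided exact rank-sum test, and the log2 difference in edgeR was 5.75 ± 0.26 (SE) with an adjusted p of 4.82e-30. In the tissue contrasts with TMM scaling, kidney was above each of the 15 tissues, least so above brain. There the log2 difference was 1.56 with an adjusted edgeR p of 0.00968, while in RPM the brain median was 74.8% of the kidney median.

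The other arm, hsa-miR-204-3p, was rare but followed the same order. Its kidney values were 0.917, 9.72, 5.42, 25.6 and 16.6 RPM, a ratio of means of 15.7, and it had no read in 6 tissues. miR-211, the relative of miR-204 in an intron of TRPM1, had at most 1.35 RPM in kidney and a median of 7.45 in brain, with no read in 4 tissues, a ratio of means of 0.398, a log2 difference of 1.32 and an adjusted edgeR p of 0.0518. Of the 3 arms of this family that were tested, 2 were called higher.

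miR-196a lies in the HOX clusters and represses HOXB8 and HOXC8. Its kidney values were 753, 533, 378, 473 and 336 RPM, with a mean of 495 ± 164 (SD, n = 5) against 86.4 over the other samples. The other tissues fell apart into those with and those without it. Medians were 465 RPM in sciatic nerve, 372 in ileum, 221 in skeletal muscle, 217 in colon and 177 in testis, and 0 in brain, lung, pancreas and plasma. Of the other samples, 5 were above the lowest kidney value. The ratio of means was 5.73 with an adjusted p of 0.00139 by the exact rank-sum test, and edgeR's adjusted p was 1.39e-29, but without kidney sample 1 the ratio was 4.98, below the limit given next. Plasma had no read of it, so the fitted log2 difference of 6.82 is no measure of size, and limma on log2(RPM + 1) gave 5.40. In the contrasts with colon, ileum, sciatic nerve and skeletal muscle its adjusted edgeR p was 0.0518, 0.0739, 0.277 and 0.0735.

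The study calls a miRNA tissue enriched (TE) when a tissue's mean exceeds that of the remaining samples by a factor above 5 and the adjusted rank-sum p is below 0.05. Among the 266 miRNAs with a median above 100 RPM in at least 1 tissue, a level at which the study also counts miRNAs, miR-204 and miR-196a were TE in kidney (2 of 266, 0.752%). The count was 6 on TMM library sizes, with miR-10b, hsa-miR-10b-3p, hsa-miR-30a-3p and hsa-miR-30c-2-3p added, and 5 by the ratio of medians. None was highly tissue enriched (HTE) in kidney alone, which requires a median more than 5 times the highest sample of any other tissue. The rule for HTE in a pair of tissues asks that the second tissue median be above 70% of the first and the third below 20%. Kidney was among the 2 highest tissues for 12 of the 266, and 0 of these met it. For miR-204, brain was at 74.8% of kidney and testis at 38.6%. hsa-miR-30c-2-3p was the single miRNA whose kidney median exceeded the highest other sample at all, by a ratio of 1.04. The mirrored rule, a mean below 0.2 of the other samples with an adjusted p below 0.05, held for 5 of 266 (1.88%), namely miR-375, miR-150, miR-130b, miR-628 and hsa-miR-628-3p. A mean below 0.2 of the others without regard to the test was found for 114 of the 266.

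**Figure D1:**
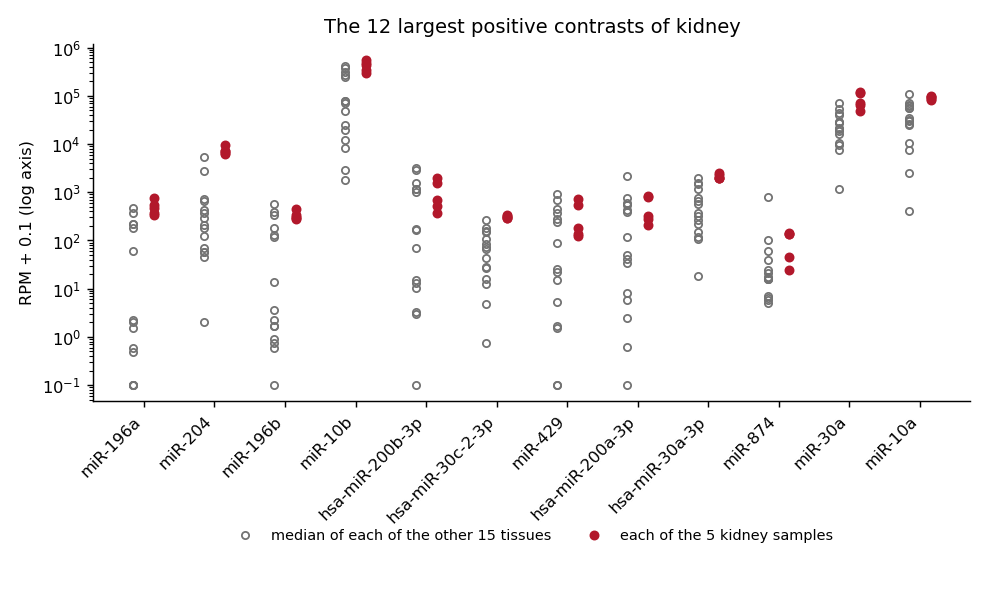
Levels of the 12 miRNAs with the largest positive edgeR contrasts among those with a kidney median of at least 100 RPM. Filled points are the 5 kidney samples, open circles are the medians of the other 15 tissues, and the axis is RPM + 0.1 on a log scale, so that a median of 0 is drawn at 0.1. Kidney points lie above nearly all open circles for miR-204 and hsa-miR-30c-2-3p, while for hsa-miR-200b-3p and miR-429 several tissues lie at or above kidney.

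The HOX-cluster miRNAs that were tested were all called higher by edgeR. Of 9 arms with reads, 7 were tested and all 7 were called higher, where 20% of all tested miRNAs were, with a median log2 difference of 3.75 against -0.00 over all tested. Both arms of miR-10a, miR-10b and miR-196b are among the 7. hsa-miR-196b-3p had a kidney median of 1.36 RPM and a ratio of means of 1.35. That median lies under the 2.75 RPM that 3 reads make in the shallowest kidney sample. The 2 not tested, miR-615 and hsa-miR-196a-3p, had at most 4 and 12 reads in a kidney sample. miR-10b, which lies in the HOXD cluster, had 343161, 297875, 478946, 445638 and 547844 RPM in the kidney samples. Skeletal muscle and testis, with medians of 416863 and 381149 RPM, reached the same level, and 13 of the other samples lay above the lowest kidney sample. Its log2 difference was 3.75 ± 0.28 (SE) with an adjusted edgeR p of 5.38e-19, kidney was above 13 of the 15 tissues, and against skeletal muscle the difference was -0.07 with an adjusted p of 0.986. miR-10a, of the HOXB cluster, had 95599, 82800, 100359, 94677 and 84567 RPM, close together, with lung at a median of 109098. Its log2 difference was 2.57 ± 0.36 (SE) with an adjusted edgeR p of 1.15e-08, and it was above 9 tissues.

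The passenger arms of both moved with them. hsa-miR-10b-3p had between 63.3 and 84.5 RPM in kidney, a ratio of means of 6.01 and a log2 difference of 4.33 ± 0.28 (SE). By edgeR with TMM scaling it was above all 15 tissues, but in RPM the testis median was higher, with kidney at 95.7% of it. hsa-miR-10a-3p had between 33.8 and 73.0 RPM in kidney and a log2 difference of 2.76 ± 0.29 (SE). miR-196b had 344, 289, 277, 447 and 304 RPM, below the medians of colon with 558, ileum with 393 and sciatic nerve with 340. Its log2 difference from the mean of all tissues was 5.13 ± 0.31 (SE) with an adjusted edgeR p of 1.57e-23. The ratio of means was 2.73, and the exact rank-sum test gave an adjusted p of 0.116. Brain, heart, pancreas and plasma had medians of 0.491, 0.633, 0.825 and 0 RPM, so the large log2 difference came with a moderate ratio of means.

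The miR-30 family, which shares 1 seed across its 5p arms and is required for normal nephron development in model animals, was uneven. Of 11 arms tested, 6 were called higher and 0 lower, against 20% and 7.92% of all tested, and the median log2 difference was 1.03. miR-30a had 113905, 118356, 65888, 72089 and 47978 RPM in kidney, with samples 1 and 2 the highest. The lung median was 71735 RPM, and 10 of the other samples lay above the lowest kidney sample. The log2 difference was 2.75 ± 0.19 (SE) with an adjusted edgeR p of 5.59e-20. With TMM scaling kidney was above each of the 15 tissues, with lung nearest at 1.12, though in RPM the lung median was 99.5% of the kidney median.

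hsa-miR-30c-2-3p was the steadiest of the high miRNAs, at 296, 320, 298, 336 and 313 RPM, a mean of 313 ± 16.3 (SD, n = 5), where the median of the other samples was 46.1. Only 1 of the other samples, from sciatic nerve, exceeded the lowest kidney sample. The log2 difference was 3.60 ± 0.24 (SE) with an adjusted edgeR p of 2.11e-21, and the exact rank-sum test gave an adjusted p of 0.000246. Its ratio of means was 4.40, short of the limit of 5. hsa-miR-30a-3p had 2000, 1982, 1935, 2309 and 2485 RPM, a ratio of 3.64 and a log2 difference of 3.15 ± 0.23 (SE). miR-30c had 7317, 9448, 5558, 7098 and 3993 RPM and a difference of 2.36 ± 0.18 (SE), and both were above 14 of the 15 tissues.

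The remaining members were nearer to the other tissues. miR-30b had a difference of 1.73 ± 0.21 (SE) with an adjusted edgeR p of 2.55e-10, although the heart median of 4783 RPM exceeded the kidney median of 1788. hsa-miR-30d-3p had 1.03 ± 0.27 (SE) and was not past the limits with library size alone, where its difference was 0.38. Not called were miR-30d at 0.52, hsa-miR-30e-5p at 0.79, its other arm miR-30e at 0.75, hsa-miR-30c-1-3p at 0.81 and hsa-miR-30b-3p at -0.01. All arms together took between 6.46% and 15.7% of the kidney reads with a median of 9.65%, and medians of 12.4% in heart and 10.5% in lung. The 30a and 30c-2 arms were thus the members with the largest differences, and the 30d and 30e arms were not called apart from hsa-miR-30d-3p. The mature sequences of family members are near-identical, and how the reads of such members were divided was not tested.

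miR-192, miR-194 and miR-215 are known as epithelial miRNAs of gut, liver and kidney, and miR-192 and miR-215 have nearly the same mature sequence. miR-192 had 31926, 47962, 46094, 56012 and 39101 RPM in kidney. Jejunum, liver and colon were far higher with medians of 302243, 176166 and 155908 RPM, and skeletal muscle was lowest at 787. The mean of kidney was 0.643 times the mean of the other samples, while the log2 difference from the mean of the tissues was 2.54 ± 0.29 (SE) with an adjusted edgeR p of 2.42e-11. Kidney was above 9 tissues and below 2, jejunum with a log2 difference of -2.20 and an adjusted edgeR p of 0.000574, and liver with -1.51 and 0.0158. With the other samples as 1 group the difference was -0.02. The sign for miR-192 thus rests on whether tissues are averaged by level or by log2 level.

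miR-194 went the same way, with 1238, 2075, 1735, 2069 and 1286 RPM in kidney, medians of 28457 in jejunum, 11766 in ileum and 8832 in liver, and a log2 difference of 2.40 ± 0.33 (SE). Its ratio of means was 0.326, and with the other samples as 1 group the log2 difference was -0.996. Kidney was above 10 tissues and below the other 5, which were duodenum, jejunum, ileum, colon and liver. miR-215 differed from both. It had 38.5, 54.9, 33.9, 21.1 and 27.6 RPM in kidney against 53125 in jejunum and 21317 in ileum, and was called lower with a log2 difference of -1.88 ± 0.66 (SE) and an adjusted edgeR p of 0.0203. In the gene table of a newer dog assembly (UU_Cfam_GSD_1.0), a miR-194 gene lies within 10 kb of the miR-215 gene. The kidney levels of miR-194 and miR-215 differed by more than the spread of the 5 samples. Counts are per mature miRNA and do not say which gene the reads came from. Of the 4 arms tested in this family, 3 were called higher, including hsa-miR-192-3p, and 1 lower. hsa-miR-192-3p had a kidney median of 5.54 RPM and a ratio of means of 0.675, below 1 as for miR-192 and miR-194.

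The miR-200 family keeps epithelial cells in their state by repressing ZEB1 and ZEB2. Its members come from a pair of clusters, miR-200a, miR-200b and miR-429 in one and miR-200c and miR-141 in the other, and the genes of each lie within 10 kb in that table. The clusters differed in their calls against the other tissues. hsa-miR-200b-3p had 2018, 1562, 511, 679 and 363 RPM, hsa-miR-200a-3p 843, 792, 277, 316 and 207, and miR-429 between 122 and 736. Samples 1 and 2 were the highest in each. These 3 had log2 differences of 3.62 ± 0.48, 3.21 ± 0.48 and 3.45 ± 0.55 (SE) by edgeR with adjusted p of 4.04e-09, 6.22e-08 and 3.85e-07, though hsa-miR-200b-3p and miR-429 had no read in bone marrow, and limma gave these 3.05 and 2.81. Colon with 3112 RPM and pancreas with 2883 RPM exceeded the kidney median of 679 for hsa-miR-200b-3p, and its ratio of means was 1.24, with 1.36 for miR-429.

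The second cluster was not called. miR-200c had 43.1, 77.9, 29.2, 55.9 and 26.8 RPM in kidney with a log2 difference of -0.02, and pancreas had a median of 1834. miR-141 had 445, 497, 90.2, 104 and 60.9 RPM with a difference of -0.56 and an adjusted edgeR p of 0.705, and pancreas had a median of 16612. All 5 tested arms of the first cluster were called higher and none of the 4 of the second, where 20% of all tested miRNAs were. Ratios of means ran from 0.893 to 1.36 in the first cluster and from 0.0458 to 0.102 in the second. The difference between the clusters was not itself tested.

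**Figure D2:**
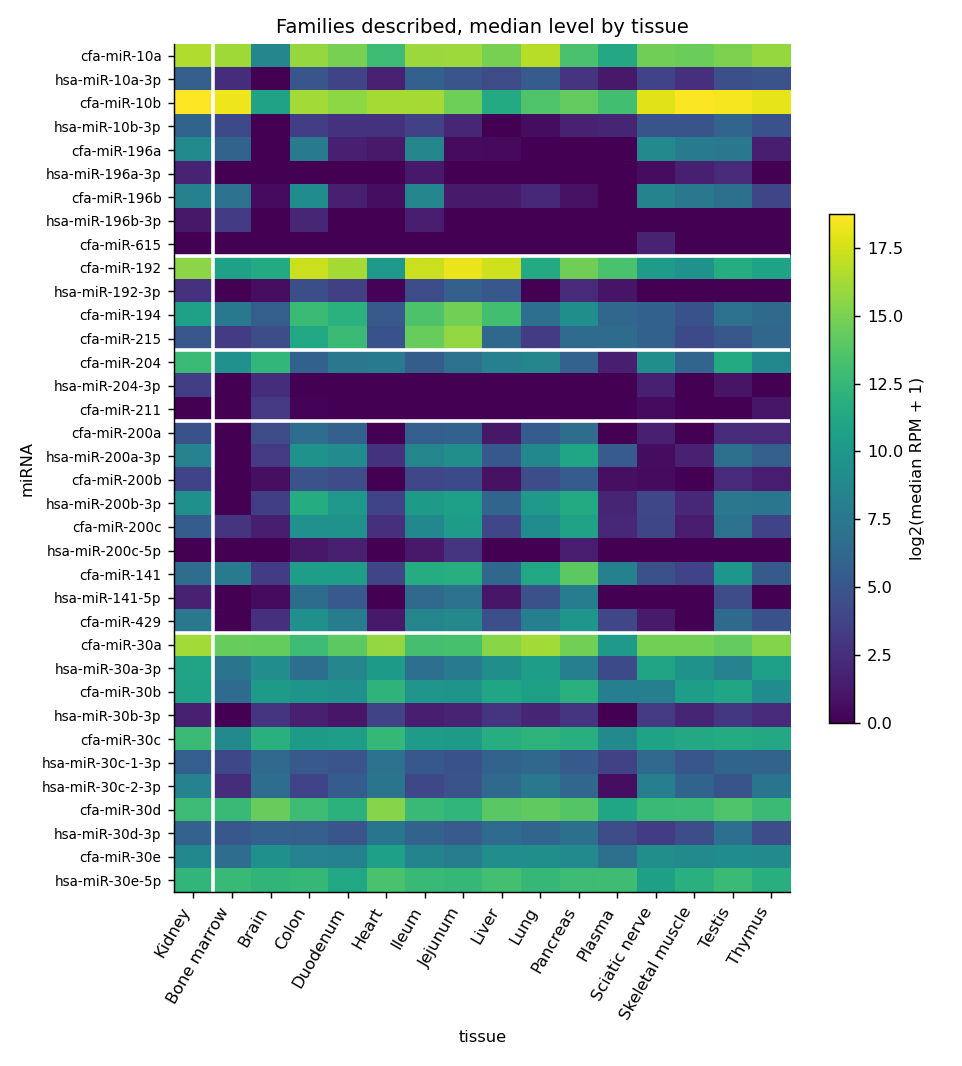
Median level of each arm in each tissue on the scale log2(median RPM + 1), with kidney in the first column. White lines divide the HOX-cluster miRNAs, the miR-192, miR-194 and miR-215 group, the miR-204 and miR-211 pair, the miR-200 family and the miR-30 family, and the colour bar gives the scale. miR-10b is brightest in kidney, skeletal muscle and testis, the miR-192 group is brightest in the gut, and miR-215 is dark in kidney.

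Further miRNAs were higher in kidney outside these families. Of the 96 higher calls, 33 had a kidney median of at least 100 RPM and 30 had one under 10 RPM. miR-874, which lies within the gene KLHL3 in human, had 24.8, 44.4, 139, 138 and 140 RPM. Samples 1 and 2 were low and the other 3 nearly equal. The log2 difference was 2.91 ± 0.24 (SE) with an adjusted edgeR p of 6.83e-17, kidney was above 13 tissues, and brain, with a median of 805 RPM, was above kidney by an adjusted edgeR p of 0.0187. hsa-miR-378a-5p, made from an intron of the metabolic regulator PPARGC1B, had 51.4, 47.4, 142, 139 and 156 RPM and a difference of 2.34 ± 0.35 (SE), again with samples 1 and 2 lowest. Its partner miR-378 had between 9272 and 18418 RPM, a difference of 1.35 ± 0.32 (SE) by edgeR and 0.63 with library size alone, and heart and skeletal muscle had medians of 64685 and 58018 RPM.

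A cluster of miRNA genes that in human lies in introns of CLCN5, the chloride transporter gene of the proximal tubule, is described next. It was picked after its values were seen, so its count supports nothing. In the dog gene table the genes of miR-188, miR-362, miR-500, miR-502, miR-532 and miR-660 lie in 1 chain in which each is within 10 kb of others. Of the 12 arms of these 6 genes, 10 were tested and 10 were called higher, where 20% of all tested were, with log2 differences from 1.14 to 2.45 and a median of 1.90. With library size alone, 6 of the 10 were called. miR-500 had 623, 801, 707, 823 and 575 RPM in kidney, with a difference of 1.90 ± 0.17 (SE), an adjusted edgeR p of 1.28e-15 and kidney above 14 tissues. miR-532 had 538, 721, 452, 581 and 517 RPM, with 1.89 ± 0.17 (SE) and kidney above 13 tissues. Testis was the tissue with the highest other median for 8 of the 10, at 1531 RPM for miR-500, where the log2 difference of kidney from testis was -0.09 with an adjusted edgeR p of 0.863.

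Of the list of miRNAs that the study named among the most abundant in kidney, 10 of 13 tested arms were called higher, where 20% of all tested were, with a median log2 difference of 2.34. With library size alone 7 were. The study chose these on the same samples, so the count is no independent evidence. Its members with the smallest differences were miR-191 at 0.10, miR-181a at 0.86 and hsa-miR-181a-3p at 0.90. miR-191 was nearly constant in kidney at 18073, 17957, 16094, 17073 and 14594 RPM, and brain and ileum had medians of 40752 and 35368. miR-22 had 65745, 63756, 25514, 40728 and 25653 RPM and a difference of 1.23 ± 0.21 (SE), but 0.65 with library size alone, and liver had 122630. Being abundant in kidney and being higher there than elsewhere were therefore not the same set. Of the 10 most abundant, miR-181a, miR-26a, miR-143 and miR-191 were not called.

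Kidney was lower than the mean of the tissues for 38 miRNAs, and 31 of these had a median of at least 100 RPM in another tissue. The highest other tissue was brain for 11 of the 31, ileum for 4, and heart, plasma and testis for 3 each. The kidney median of the 38 was 3.87 RPM in the middle, so these calls compare low kidney levels with tissues in which the miRNA is abundant. limma on log2(RPM + 1) also called 37 of the 38 lower, but its median log2 difference of -0.42 over all tested favours lower calls.

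miR-375, an miRNA of pancreatic islets and of gut endocrine cells, was the lowest relative to the other tissues. Its kidney values were 6.42, 9.72, 4.07, 14.2 and 12.7 RPM, against medians of 148274 in pancreas and 5712 in colon. Of the other 71 samples, 6 lay below the highest kidney sample. The log2 difference was -5.52 ± 0.82 (SE) with an adjusted edgeR p of 5.99e-08, the exact rank-sum test gave an adjusted p of 0.00701, and kidney was below 12 of 15 tissues. miR-122, the hallmark miRNA of hepatocytes, had 0.917, 0.299, 0, 0.345 and 0.193 RPM in kidney, at most 2 reads in any of the samples, while liver had a median of 22008. Its fitted log2 difference was -3.37 ± 0.81 (SE) with an adjusted edgeR p of 0.000481, and kidney was below 8 of the 15.

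The leukocyte list, of miRNAs abundant in blood and lymphoid cells, was lower in kidney. Of 6 tested arms 5 were called lower, where 7.92% of all tested were, and the median log2 difference was -2.56. miR-142, which is restricted to blood cells, had 272, 188, 170, 85.6 and 109 RPM in kidney against medians of 22440 in plasma and 13936 in ileum. Testis, sciatic nerve, brain and skeletal muscle were at the kidney level, with medians of 146, 173, 177 and 231 RPM. It was below 9 of the 15 tissues, with a difference of -2.66 ± 0.55 (SE) and an adjusted edgeR p of 6.55e-05. miR-150, a miRNA of mature lymphocytes, had 12.8, 23.5, 23.7, 25.9 and 17.6 RPM, and each of the other tissues had a higher median, from 26.7 in pancreas to 1067 in ileum. The difference was -2.45 ± 0.49 (SE) with an adjusted edgeR p of 2.83e-05. miR-155 and miR-223 were also called. The sum over the list was between 153 and 399 RPM in kidney and had a median of 2669 in the other samples. The red cell miRNAs miR-451, miR-144 and miR-486 were not called, with miR-486 at 3148 to 9439 RPM in kidney and a difference of -1.29. Their ratios of means were nevertheless below 1, from 0.0741 for miR-486 to 0.227 for miR-451. With library size alone miR-486 was called lower, at -1.99.

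Other miRNAs called lower were miR-130b at -2.40 ± 0.45 (SE), miR-153, a neuronal miRNA, at -2.85 ± 0.57, and miR-182 and miR-183, which are made from 1 cluster best known from sensory cells, at -2.24 ± 0.76 and -2.89 ± 0.86 by edgeR with adjusted p of 0.0162 and 0.00503. miR-183 had between 5.79 and 12.8 RPM in kidney and medians of 841 in sciatic nerve and 282 in pancreas. Its medians of 3.58 RPM in heart and 5.61 in skeletal muscle were under the kidney median of 8.29. miR-153 had a median of 0.173 RPM in kidney and 352 in brain, but also 0 in skeletal muscle and 1.14 in thymus. miR-208b, encoded in a myosin heavy chain gene of slow muscle and heart, had at most 0.863 RPM in kidney and a median of 3829 in heart, with a difference of -2.56 ± 0.68 (SE). Liver and brain were nearly as low for miR-208b, with medians of 0.771 and 0.982 RPM. miR-490 at -3.11 and miR-383 at -3.04 had at most 0.917 RPM in any kidney sample, and several other tissues were as low. The miR-490 median was 0 in pancreas, plasma, skeletal muscle, testis and thymus and 178 in heart. The miR-383 median was 0 in heart, ileum and testis and 209 in brain.

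**Figure D3:**
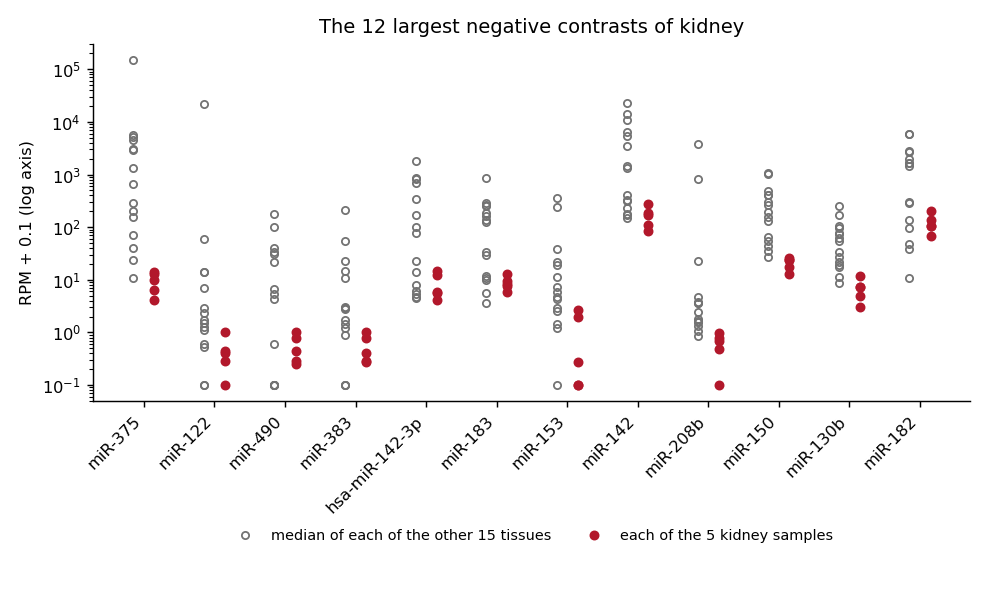
Levels of the 12 miRNAs with the largest negative edgeR contrasts among those with a median of at least 100 RPM in another tissue. Filled points are the 5 kidney samples, open circles the medians of the other 15 tissues, on a log axis of RPM + 0.1. Kidney points for miR-375 lie between 4.07 and 14.2 RPM, below most tissues, and for miR-122 the liver median stands alone at 22008.

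Markers of other cell types were checked as lists. edgeR gave no lower call to miRNAs without a read in some tissue, so an arm not called may still be lower in kidney. The striated muscle list had 13 arms, of which 6 were at 0 in every kidney sample, and its sum was 95.7 to 259 RPM in kidney, most of it miR-133a with a median of 92.2. miR-208b and miR-499 of it were called lower. The other 8 tested arms were not called, although their ratios of means ran from 0 to 0.0147. The acinar list of miR-216a, miR-216b and miR-217 summed to at most 0.863 RPM in kidney, and each of its 5 arms had at most 3 reads in any kidney sample. None of its arms was called by edgeR, although their ratios of means ran from 0.000135 to 0.00245. miR-216a, miR-216b and miR-217 had no read in bone marrow, and their pancreas medians were 4143, 5507 and 3543 RPM. The neural list had 2 of 12 tested arms called higher, no larger a share than the 20% of all tested, miR-9 at 1.31 ± 0.28 (SE) with a kidney median of 54.2 RPM and hsa-miR-9-3p at 2.21, with brain far higher for both. miR-9 was at 0.72 with library size alone and not called. hsa-miR-9-3p had no read in 3 tissues and a ratio of means of 0.0583, and was -2.40 with the other samples as 1 group. The defining miRNA miR-124 had a kidney median of 0.173 RPM. Of the germ cell list, 0 of 6 tested arms were called, although their ratios of means ran from 0.00353 for miR-202 to 0.0186 for hsa-miR-34c-3p. Of the endocrine list, miR-375 and miR-7 were called lower.

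The vessel and stroma lists gave 1 call among 11 arms, although the ratio of means was below 1 for every arm, from 0.138 to 0.584. Neither arm of miR-126, the endothelial miRNA, was called, at 0.06 and 0.28. The smooth muscle pair miR-143 and miR-145 had 0 of 4 arms called, with miR-143 at 30646, 49213, 16153, 19870 and 20045 RPM in kidney against 352130 in colon. With library size alone miR-143 was called lower, at -1.20. In the fibroblast list, hsa-miR-199b-5p was called lower at -1.41 ± 0.36 (SE) and the other 4 arms were not. miR-210, the miRNA induced by hypoxia-inducible factor, was the 1 higher call of the renal injury list, with 35.8, 53.1, 44.8, 66.3 and 66.3 RPM and a difference of 1.83 ± 0.21 (SE) at an adjusted edgeR p of 2.07e-11. Lung alone had a median above 100 RPM for it, at 155. miR-146a, miR-146b and miR-155 of that list were called lower, and miR-21, a miRNA raised in fibrosis, was not called at 0.35. Of 14 tested arms of the injury list, 1 was thus higher and 3 lower, where 20% and 7.92% of all tested were, and 10 were not called.

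The broadly expressed families differed in their calls, to be read against 20% higher and 7.92% lower over all tested. Of 14 let-7 arms tested 2 were higher, let-7c at 1.73 ± 0.27 (SE) and hsa-let-7e-3p at 1.33, and neither passed with library size alone, where let-7c was 0.97. The miR-99, miR-100 and miR-125 group had 5 of 9 higher, led by hsa-miR-99a-3p at 2.09 ± 0.29 (SE), and 1 with library size. The miR-29 family had 1 of 6 higher, hsa-miR-29c-5p, and the miR-193 and miR-365 group 2 of 6, hsa-miR-193a-3p and rno-miR-193b-3p. With library size alone these were at 0.38, 0.51 and 0.45 and not called. hsa-miR-193a-3p was -0.26 without kidney samples 1 and 2 and -0.36 with the other samples as 1 group. The miR-17 to miR-92 relatives had 2 of 19 lower, the miR-23, miR-24 and miR-27 group 2 of 8 and the miR-181 family 1 of 6, miR-181d at -1.38 ± 0.36 (SE). With library size alone 7 of 19, 6 of 8 and 3 of 6 were lower. miR-31 and hsa-miR-31-3p of the stratified epithelium list were called higher and miR-203 lower, with miR-31 spread widely between samples as described below. hsa-miR-31-3p had no read in 4 tissues and a ratio of means of 0.427, was not called with library size alone, and was -0.20 in limma, -0.80 with the other samples as 1 group and -0.054 without kidney samples 1 and 2.

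In the contrasts of kidney with each tissue, taken from the same fit and adjusted over all 7200 tests, 20.4% were called higher in kidney and 18.5% lower. All these contrasts share the 5 kidney samples. Lung had the fewest calls with 83 higher and 49 lower, then liver with 84 and 64 and heart with 88 and 66, and brain had the most with 140 higher and 169 lower. With library size alone 869 tests were called higher and 1966 lower, in place of 1470 and 1335. Of the tested miRNAs, 6 were above all 15 tissues with TMM scaling, namely miR-204 and its other arm, miR-30a, hsa-miR-10b-3p, hsa-miR-500a-5p and hsa-miR-32-3p. None was below all 15. For hsa-miR-10b-3p the testis median was higher in RPM. The kidney medians of hsa-miR-204-3p and hsa-miR-32-3p, 9.72 and 5.53 RPM, lay under the 19.0 RPM that 3 reads make in the shallowest other sample. The most tissues that kidney was below was 12, for miR-375.

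**Figure D4:**
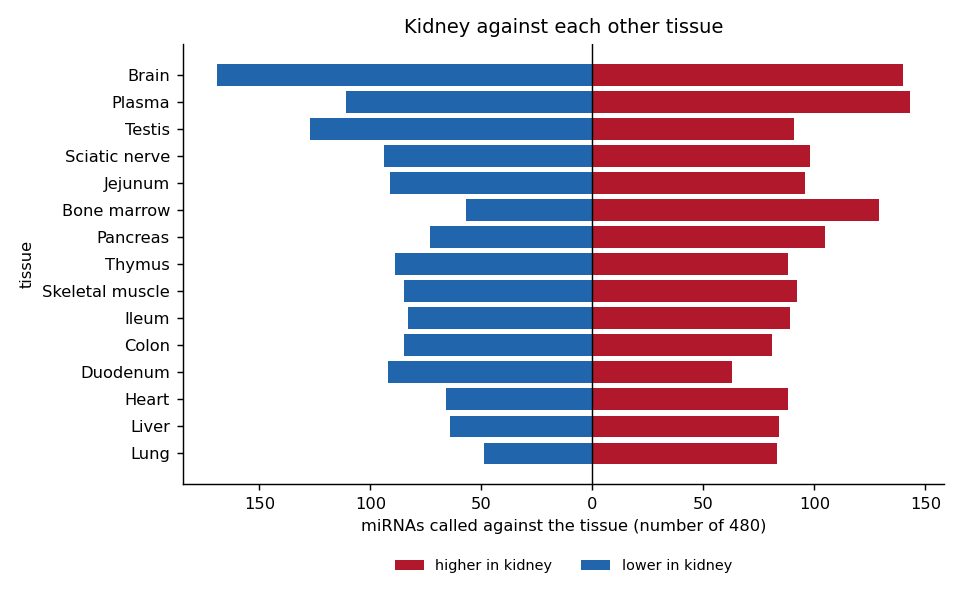
Number of miRNAs, of 480 tested, called higher (red, to the right) or lower (blue, to the left) in kidney against each other tissue, with TMM scaling. Tissues are ordered by the total, from lung with 132 to brain with 309.

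Plasma is the fluid in which tissue miRNAs are sought as markers of injury. Kidney exceeded it for 143 of 480 miRNAs (29.8%) and lay below it for 111. Plasma medians were 1.92 RPM for miR-204, 0 for miR-196a and 0.639 for hsa-miR-30c-2-3p. They were 8469 RPM for miR-10b and 10683 for miR-192, the latter with a log2 difference of kidney from plasma of 1.47 and an adjusted edgeR p of 0.0191. At the other end, miR-486 had 579253 RPM in plasma and 5712 in kidney, and the log2 difference of miR-142 was -7.22 with an adjusted edgeR p of 6.99e-12. Plasma libraries had no read of 92 of the tested miRNAs, and RNA of plasma was extracted differently, which cannot be told apart from the tissue.

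The 5 kidney samples were alike in rank and differed in level. Across the 480 tested miRNAs, which are not independent replicates, Spearman correlations between kidney samples ran from 0.911 for samples 1 and 3 to 0.978 for samples 4 and 5. Samples 1 and 2 differed by more than 1 on the log2(RPM + 1) scale for 59 miRNAs and samples 3 and 5 for 36, while sample 1 differed from samples 3, 4 and 5 for 142, 133 and 147. Of the 103 miRNAs with a kidney median of at least 100 RPM, 48 stayed within a factor of 2 between the lowest and highest sample, and 16 exceeded a factor of 4. Samples 1 and 2 were both above the other 3 for 54 of the 103 and both below for 14, and samples 1 and 2 also had less miR-10b. The study reports that RNA integrity was very low in a subset of the kidney samples and high in others, and its text does not name them. The labels name no batch, and the cause of the spread was not tested.

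The widest spread was that of miR-425, miR-31 and miR-141. miR-425 had 8.26, 219, 50.9, 143 and 123 RPM, so that sample 1 alone was low. miR-31 had 662, 743, 157, 179 and 50.0 RPM, a factor of 14.9, and miR-141 a factor of 8.15. Samples 1 and 2 were the highest of both.

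miR-21 was also spread, with 16239, 16043, 3132, 5139 and 2491 RPM. miR-101 and miR-429 were also highest in samples 1 and 2, and miR-127, with 109, 150, 624, 838 and 514 RPM, was lowest there. hsa-miR-30c-2-3p, miR-10a and miR-191 hardly varied, and miR-204 was spread without a gap between samples 1 and 2 and the others. The sum of the leukocyte list was 399 and 306 RPM in samples 1 and 2 and 153 to 231 in the other 3, that of the smooth muscle list 31360 and 49957 against 16780 to 20960, and that of the arms of miR-126 11936 and 14234 against 5213 to 7073. miR-10b had 343161 and 297875 RPM in samples 1 and 2 and 445638 to 547844 in the other 3. Since RPM is a share, less miR-10b leaves a larger share for all other miRNAs, these lists included. The part of miR-10b and of these lists in the spread was not tested. Without samples 1 and 2, in a fit chosen after this was seen, 95 miRNAs were called higher and 25 lower.

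**Figure D5:**
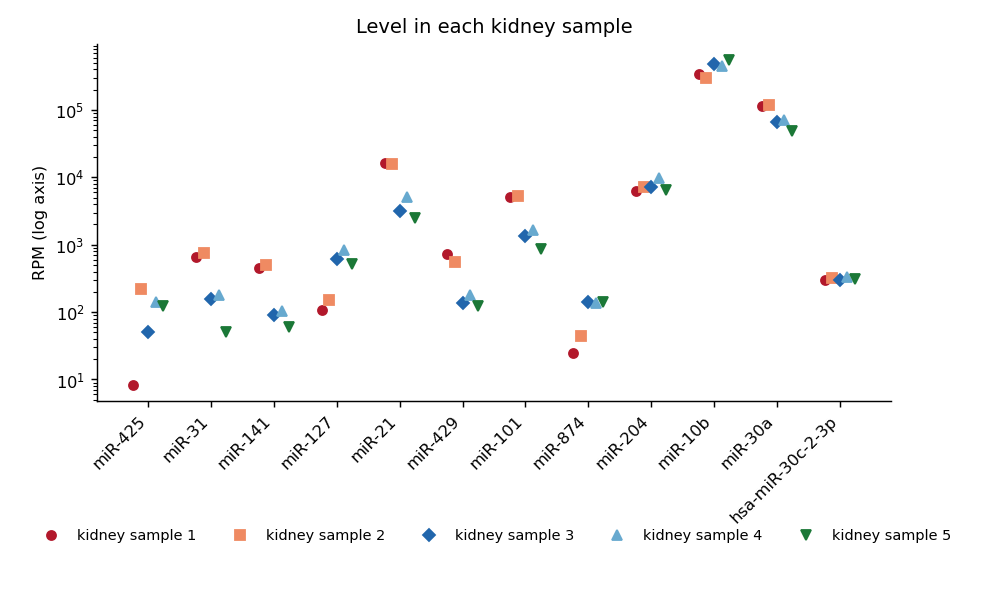
RPM of 12 miRNAs in each of the 5 kidney samples on a log axis, 1 symbol per sample. Samples 1 and 2 stand above the other 3 for miR-31, miR-141, miR-21, miR-429, miR-101 and miR-30a and below them for miR-127, miR-874 and miR-10b, while miR-204 and hsa-miR-30c-2-3p lie close together in all 5.

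The balance of the arms was compared for 24 hairpins with both arms at a kidney median of at least 10 RPM. The log2 ratio of 5p to 3p reads differed from that of the other samples for 1 of 24 (4.17%), miR-425. It was 3.25 ± 0.49 (SD) over the 4 kidney samples with at least 10 reads on both arms together, against 4.91 over 68 other samples, with an adjusted p of 0.0167 by the exact rank-sum test. When 1 in place of 0.5 was added to each count, 0 of the 24 were called. The other hairpins with the largest differences were miR-1307 with 0.80 and miR-378 with 0.76 towards the 5p arm, with adjusted exact p of 0.495 and 0.394. The 5p to 3p log2 ratio of miR-10b was 12.5 in kidney, a difference of -0.49 from the other samples with an adjusted exact p of 0.476.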

How the data were processed

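The members and lists were chosen with earlier results of these data known. The authors aligned adaptor-clipped reads to CanFam3.1 (per the labels and the study's methods) and deposited read counts for each miRNA and sample, the total count per sample, and RPM, the count scaled to that total. A miRNA without a row in a sample was set to 0. Recomputed RPM differed from the deposited values by at most 2.89e-09 (relative). The table's 1 sample name that matched no label was not used, and 1 labelled sample without rows was not analysed here. The deposited maximum RPM was not used. edgeR 4.0.16 (TMM, filterByExpr, quasi-likelihood test, 16 tissue coefficients) was the main test. DESeq2 1.42.0 and limma 3.58.1 were alternatives. Exact rank-sum tests used Python 3.11.15 and scipy 1.17.1. The edgeR and rank-sum steps were tested on simulated data. SE is the log2 difference over the root of F. Named were TE miRNAs, the 12 largest calls each way, the 10 highest medians, all members of the first 6 lists, up to 3 of each other list, and the 3 extremes of arm ratio and spread. Others are named after their values were seen. List members were matched by name, both arms apart. Depth is 157871 to 7896424 reads. Neighbouring genes were read from UU_Cfam_GSD_1.0. No miRNA sequence was used here.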

Additional observations from a re-analysis of the deposited data

Results flagged for a closer look

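Among 70 named miRNAs with a kidney median of at least 10 RPM, 1 had a kidney sample far from the other 4 by Dixon's test, where chance flags about 1 in 20 groups of samples. hsa-miR-125b-2-3p had 575 RPM in kidney sample 2 and between 401 and 449 RPM in the other 4.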

How the results depend on the processing

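No paired analysis was possible because the labels do not say which of the 5 dogs each sample came from. In place of 96 higher and 38 lower, library size alone gave 52 and 77, limma 43 and 98, all other samples as 1 group 16 and 0, and a fit on miRNAs with reads in every tissue (added after the values were seen) 55 and 59. Those above 100 RPM in a tissue gave 39 higher. Lower calls were 93 with DESeq2, 60 with no filter on counts, 69 without bone marrow, 66 without brain, 60 without liver, 58 without lung, 60 without skeletal muscle, 70 without testis, 62 without plasma and bone marrow, and 25 without kidney samples 1 and 2 (added). Leaving out 1 kidney sample gave 66 to 105 higher and 28 to 54 lower. The causes were not tested.

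TE miRNAs numbered 6 on TMM library sizes, 5 by medians, 5 with no filter on expression, 5 on RPM without miR-10a and miR-10b (added), and 1 to 2 leaving out 1 kidney sample, where miR-196a was lost without sample 1. Depleted miRNAs numbered 2 on TMM library sizes, 3 by medians, 12 adjusted over the highly expressed alone, 3 without miR-10a and miR-10b, and 3 to 5 leaving out 1 sample. Higher calls over the 15 tissue contrasts were 869 with library size alone in place of 1470. Called hairpins were 0 with 1 added to each count and 0 to 1 leaving out 1 sample (0 without sample 3, 4 or 5).

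With the other samples as 1 group, the log2 difference turned negative for miR-192 (-0.021), miR-378 (-0.0648), miR-194 (-0.996), hsa-miR-31-3p (-0.80), hsa-miR-9-3p (-2.40) and hsa-miR-193a-3p (-0.36). hsa-miR-31-3p was also -0.20 in limma and -0.054 without kidney samples 1 and 2, where hsa-miR-193a-3p was -0.26. miR-204, miR-30a and hsa-miR-30c-2-3p kept their call under all 30 alternatives. The depth puts 3 reads at up to 2.75 RPM in kidney and at up to 19.0 RPM in the other samples. Differences among rarer miRNAs could therefore not be seen in each sample, and 30 of the 96 higher calls had a kidney median under 10 RPM.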
